A study of Bos taurus with 18 samples.

Results

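The region described here is a 2-Mb window of Bos taurus chromosome 7 (BTA7), whose first and last tiles span chr7:51992001-53990000 on the UMD 3.1 genome, around the lead position of a quantitative trait locus (QTL, a stretch of genome whose variants go with a trait) for gestation length. It was cut into tiles of 2000 bp. Tiles of 3 fine-mapped genes, NRG2, CYSTM1 and PCDHA13, with 2000 bp on either side, were left out, as was any tile with a listed CpG position in fewer than 9 of the 18 bulls. Of the 999 tiles wholly inside the window, 249 lay in those genes or their flanks and 37 of the remaining 750 were listed in too few bulls, which left 713 tiles of the 1186985 in the genome that met the same listing rule. At the threshold itself, 19 tiles were listed in exactly 9 bulls, and 10 tiles listed in 8 bulls were left out.

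In mammalian sperm most CpG sites carry a methyl group, and the sites that do not lie mainly in CpG-rich stretches, often at gene promoters, that stay unmethylated in the germ line. A cytosine in bisulfite-treated DNA reads as thymine unless it is methylated, so the percent of reads that keep the cytosine is the methylation level of that position. A window of this size therefore holds long methylated and short unmethylated stretches, and a tile that straddles the border of such a stretch has an intermediate mean.

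Sperm of 18 adult Holstein bulls was measured by whole-genome bisulfite sequencing, with 1 deposited sample per bull. High gestation length (GL) bulls were H03, H09, L03 and L05, and low GL bulls were H02, H05, L01 and L07. For sire calving ease (SCE) the high bulls were H03, H07 and L02 and the low bulls H01, H06 and L09. For body depth (BDE) the high bulls were H02, L03 and L08 and the low bulls H05, H09 and L02. For cow conception rate (CCR) the high bulls were H08, H09 and L06 and the low bulls H06, L08 and L09, and for sire conception rate (SCR) the high bulls were H01, H02 and H03 and the low bulls L01, L02 and L03. H04 and L04 carry no group. A bull could stand in several comparisons, so those comparisons share bulls and are not independent. High and low refer to the evaluation of the bull for each trait, and the bulls differ in other ways that the labels do not give, so a difference between groups is a difference between these few bulls. No expression was measured, so the tissue label could not be set against marker genes.

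Across the genome the bulls listed from 2858992 to 22048556 CpG positions covered by at least 10 reads, the strands of a CpG being separate positions. In the 713 window tiles they listed from 1227 positions (H01) to 9580 (H08), in 429 (H01) to 705 (H05) of the tiles. Only 171 tiles were listed in all 18 bulls, and of 21346 window positions listed in any bull only 10 were listed in all of them. Read counts were given for 6 bulls, H01 to H03 and L01 to L03, and the depth of the other 12 is unknown. At positions shared by 2 bulls, Pearson's r ranged from 0.897 to 0.969 over the 153 pairs of bulls, and 28.1% to 45.1% of the shared values were equal within 0.01 points. Of the equal values 89.8% to 99.2% were 0% or 100% in both bulls, and among the other shared values 0.392% to 5.66% were equal, so no bull repeated another.

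The window was methylated over most of its length and held more unmethylated tiles than the rest of the genome. The median over bulls was above 80% in 576 tiles (80.8%), between 20% and 80% in 86 (12.1%) and under 20% in 51 (7.15%). In the rest of the genome 2.38% of tiles were under 20% and in the rest of chromosome 7 3.25%. The median tile of the window stood at 94.7%, with an interquartile range of 88.1% to 96.3%, against 93.3% in the rest of the genome.

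**Figure D1:**
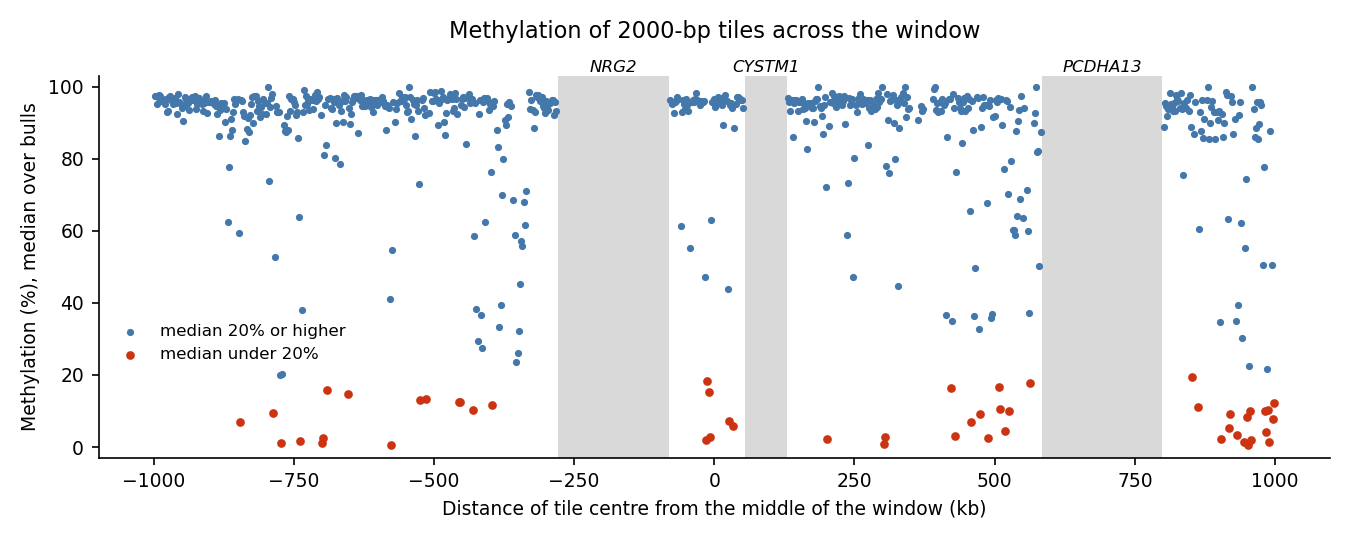
Methylation (%, median over the bulls that list the tile) of the 713 window tiles against the distance of the tile from the middle of the window in kb. Most points lie above 80%, the 51 red points lie under 20%, and grey bands mark the 3 genes left out with their flanks.

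The mean over window tiles was lower than over the rest of the genome in all 18 bulls. Over the 16 bulls with a group it was 83.0% ± 1.14 (SD) in the window and 85.2% ± 1.16 elsewhere, a difference of -2.17 ± 1.11 percentage points (permutation test by sign flips over 16 bulls, two-sided, p = 3.052e-05, the smallest it can give). The difference ranged from -4.17 points in L05 to -0.618 points in L06. The 2 bulls without a group lay inside that range, at -2.41 points in H04 and -2.81 points in L04. Against the rest of chromosome 7 alone the difference was -0.882 ± 1.02 points and 12 of the 16 bulls were lower in the window (the same permutation test, p = 0.003784). The median tile went the other way. It was higher in the window than in the rest of the genome in all 18 bulls, by 1.28 ± 0.595 points over the 16 (the same permutation test, p = 3.052e-05). Bulls share most of their methylation pattern, so these permutation tests measure how far the bulls agree on this region. Whether the window is unusual among windows of its size was not tested. When tiles with a median under 20% were left out of both sides, an alternative added after the data were seen, the mean was 88.8% ± 1.1 in the window and 87.0% ± 1.17 elsewhere. That choice of tiles uses the measured level itself, and the window held more of the tiles left out, so these means are a description with no test.

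Unmethylated tiles were unevenly spread. Before NRG2, 15 of 349 tiles were under 20% (4.30%). Between NRG2 and CYSTM1 the count was 6 of 64 (9.38%) and between CYSTM1 and PCDHA13 it was 13 of 206 (6.31%). After PCDHA13, at the distal end of the window, it was 17 of 94 (18.1%), and there the mean over tiles ran from 62.2% (H09) to 72.9% (H06). The mean before NRG2 ran from 84.5% (H09) to 88.6% (L08), so these 2 ranges did not overlap among the 18 bulls. Of the tiles left out, 3 of 139 in NRG2 and CYSTM1 with their flanks (2.16%) and 23 of 97 in PCDHA13 with its flanks (23.7%) were under 20%.

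No gene annotation of UMD 3.1 was used here, so no tile was assigned to a gene. The order of genes in NCBI RefSeq on a later assembly, ARS-UCD2.0, gives the neighbourhood only. On the NRG2 side the nearest protein-coding genes were PSD2, CXXC5 (a zinc-finger protein that acts in Wnt signalling), UBE2D2 (a ubiquitin-conjugating enzyme) and STING1 (the adaptor of cytosolic DNA sensing), followed at more distance by MATR3 and SIL1. Between CYSTM1 and PCDHA13 there were 22 genes, among them PURA (a nucleic acid-binding protein), HBEGF (a ligand of the EGF receptor), CD14 (a co-receptor for lipopolysaccharide), IK and WDR55, DND1 (an RNA-binding protein of germ cells) and the histidyl-tRNA synthetases HARS1 and HARS2. PCDHA13 belongs to the clustered protocadherins, cell adhesion proteins with many alternative first exons, and PCDHB1 of the beta cluster came after it. Which of these lie inside the window on UMD 3.1 was not determined.

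Most unmethylated tiles held many CpG positions, while most tiles with many positions were methylated. Of the 51 tiles under 20%, 41 held more than 40 positions listed in any bull, and they made up 28.1% of the 146 tiles of that density. Of those 146 tiles, 79 were over 80%. Among the 567 sparser tiles 10 were under 20%. Over the 713 tiles the number of positions and the median level had a Spearman's rho of -0.155 and a Pearson's r of -0.55. The tiles share bulls and sequencing depth, so these are descriptions.

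The longest run of adjacent tiles under 20% was chr7:52976001-52984000, 4 tiles that lie shortly before the lead position of the QTL. Its tile medians were 2.00%, 18.4%, 15.3% and 2.73%. The mean over its tiles ran from 4.16% to 22.7% (H07) over the 18 bulls, with a median of 12.2%. It was the only run of more than 2 tiles in the window. Of the 2-tile runs, the lowest were chr7:53292001-53296000, with bulls between 0% and 4.29% and a median of 1.54%, and chr7:52290001-52294000, with bulls between 0% and 10.1% and a median of 1.86%. In both, every bull that listed the run was at or below 10.1%.

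The next 5 runs by the same ranking all lay after PCDHA13. They started at 53940001, 53978001, 53946001, 53972001 and 53908001, each 2 tiles long, with medians over bulls between 5.24% and 6.97%. Their highest bulls were at 44.4% (L07), 16.4% (L03), 11.5% (L08), 33.3% (H07) and 48.8% (L08). Most bulls were thus near the floor in these runs, while single bulls stood well above it. The single lowest tile, chr7:52414001-52416000, had a median of 0.455% over 16 bulls. There, 8 bulls were at 0%, 6 lay between 0.909% and 2.56%, H01 was at 6.98% and L01 at 12.9%.

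The tiles holding the lead position itself were methylated. In chr7:52990001-52992000 the 15 bulls that list it lay between 89.1% (H09) and 100%, with a median of 96.7%. The tile before it, chr7:52988001-52990000, had 4 positions listed in any bull and stood at a median of 95.8% over 11 bulls, with H01 lowest at 70%. The tile after it, chr7:52992001-52994000, had a median of 94.4% over 17 bulls and ran from 85.6% (H09) to 100%.

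At the level of single positions the window was closer to 2 states than the tiles show. Of 13666 positions listed in at least 3 bulls, 75.3% had a median above 80%, 17.4% a median under 20% and 7.35% a value between. Runs of at least 10 consecutive positions with a median under 20%, no gap being over 500 bp, formed 57 unmethylated stretches of 100 to 2436 bp, with a median length of 676 bp. This definition was made after the data were seen. The stretches covered 49104 bp and held between 1.79 and 13.7 listed positions per 100 bp, with a median of 4.14, against 0.958 over the window tiles as a whole. There were 18 stretches before NRG2, 5 between NRG2 and CYSTM1, 14 between CYSTM1 and PCDHA13 and 20 after PCDHA13. Some adjoined, such as chr7:53941220-53941579 and chr7:53941584-53942182, so the stretches are not a count of separate unmethylated domains. Positions listed within 1000 bp of a stretch had a median over 80% in 16 of the 56 stretches that had any. The median over those 56 was 41.8%. A flank can hold part of a neighbouring stretch. For example, chr7:52219104-52220051 lies partly within 1000 bp of chr7:52220308-52220491, whose 51 flank positions had a median of 0%.

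The longest stretch was chr7:52251959-52254394, with 61 positions, where the 18 bulls lay between 0% and 6.62% (H07). The second, chr7:53420336-53422155, held 87 positions and its 17 bulls lay between 0.35% and 4.84% (L08). The third, chr7:52143610-52145294, held 60 positions and its 18 bulls lay between 0% and 9.09% (H07). In chr7:53463252-53464919 and its 79 positions the 18 bulls lay between 1.01% and 5.59% (H07). In these 4 longest stretches each bull that listed a position was under 10%. In 53 of the 57 stretches every bull that listed a position was under 20%, and the highest value of a bull in any stretch was 33.3%.

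Over all stretches the bulls' means lay between 2.33% (L05) and 3.76% (L07), and over the positions outside them between 84.0% (L05) and 90.5% (L09). Methylation went up with distance from the stretches. The median over bulls was 17.7% in the first 50 bp, 22.3% from 101 to 200 bp, 59.7% from 301 to 500 bp and 79.6% from 751 to 1000 bp. From 2001 to 5000 bp it was 92.4%, and beyond 5000 bp 90.7%. The spread between bulls was wide on the slope, from 16.8% (H01) to 53.3% (L03) at 201 to 300 bp, and narrow far from it, from 87.5% (L05) to 92.9% (H04) beyond 5000 bp. These bins held 130 and 13578 positions listed in any bull, of which each bull lists a different part, so the ranges differ in precision. At 1001 to 1500 bp, on 513 positions, bulls still ran from 60.0% (L08) to 89.9% (L09). Inside is low by construction, since low values defined the stretches. A stretch ends at a higher position or a gap, so part of the rise just outside it also follows from the definition.

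**Figure D2:**
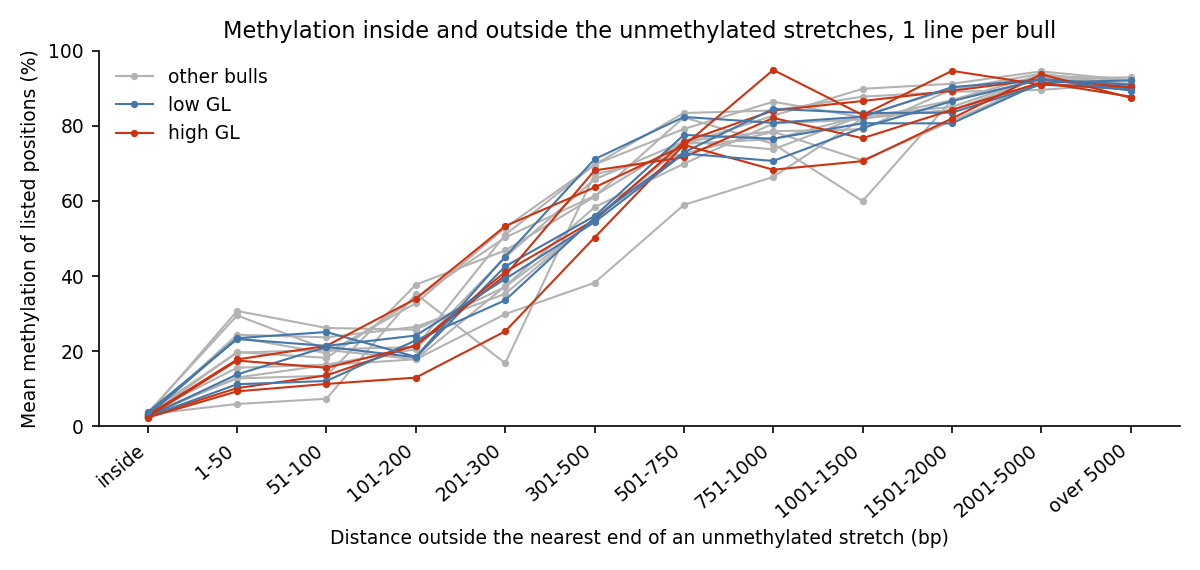
Mean methylation (%) of the listed positions inside the unmethylated stretches and in bins of distance (bp) outside their nearest end, with 1 line per bull, high GL bulls in red, low GL bulls in blue and the other 10 in grey. All lines are under 4% inside and between 87.5% and 92.9% beyond 5000 bp, and red and blue lines overlap at each distance.

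The share of a bull's listed window positions that fell in a stretch differed among bulls, from 11.2% (H01) to 17.8% (L05). Among high GL bulls it was 13.9% in H03, 16.1% in H09, 13.9% in L03 and 17.8% in L05. Among low GL bulls it was 14.3% in H02, 11.5% in H05, 12.7% in L01 and 13.3% in L07. H02 lay above H03 and L03, so these groups overlapped.

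The spread between bulls differed by where a tile lay. In the 171 tiles listed in all 18 bulls the SD between bulls had a median of 3.54 points, against 4.52 points over such tiles in the rest of the genome. At the 10 single positions listed in all 18 bulls the median SD was 5.69 points. By tile it was 11.8 points in the 25 of these tiles that overlapped an unmethylated stretch and 3.27 points in the other 146. The 5 tiles with the highest SD all overlapped a stretch. Of these, chr7:53414001-53416000 had an SD of 24.9 points and ran from 8.21% (H02) to 84.4% (L07). In chr7:52142001-52144000 the SD was 23.8 points, with H01 at 7.65% and L04 at 91.3%. In chr7:53932001-53934000 the SD was 23.1 points, and H01 was at 0% where H09 was at 100%. In chr7:53500001-53502000 the median was 10.7% and H01 alone stood at 97.4%, the next bull being at 33.3%. In chr7:52524001-52526000 the median was 93.3%, and L05 was lowest at 36.0%. The bulls list different positions in such a tile, and at this depth a difference in level cannot be told apart from a difference in which side of the border was listed.

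The GL comparison addressed whether sperm of high and low GL bulls differed at the QTL. A tile was tested where all 8 bulls list a position, and a differentially methylated region (DMR) had a q under 0.01 by logistic regression and a difference over 5 points, with 10 reads taken for each position. Of 383 window tiles tested, 42 were DMRs (11%), near the 8.75% of tiles called over the genome. Their direction was uneven: 36 were lower in high GL bulls (9.40% of tiles tested, against 3.75% over the genome) and 6 were higher (1.57% against 4.99%). Lower tiles thus made up 85.7% of the window's GL DMRs and 42.9% of the genome's. Without L05 the lower count fell from 36 to 20 of 390 tiles tested (5.13%, against 3.13% over the genome), and 14 were higher (3.59% against 4.71%). The higher count was 12 of 470 without H09 (2.55% against 5.56%), 10 of 429 without L03 (2.33% against 4.53%) and 10 of 388 without L01 (2.58% against 5.11%). This logistic test treats each read as an independent draw and ignores how far bulls of a group lie apart. The limma test and an F test scaled by overdispersion, which both estimate that spread, called 0 window tiles and 0 tiles over the genome after Benjamini-Hochberg adjustment. With so few bulls the F test could hardly reach the threshold once adjusted over all tested tiles. The 0 calls therefore do not show that the groups were alike. Among tiles that differed by over 5 points, 11 had an unadjusted F-test p under 0.05 (2.87% of tiles tested, against 3.47% over the genome) and 13 an unadjusted limma p under 0.05 (3.39% against 3.59%), and the smallest adjusted p of limma was 0.98.

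**Figure D3:**
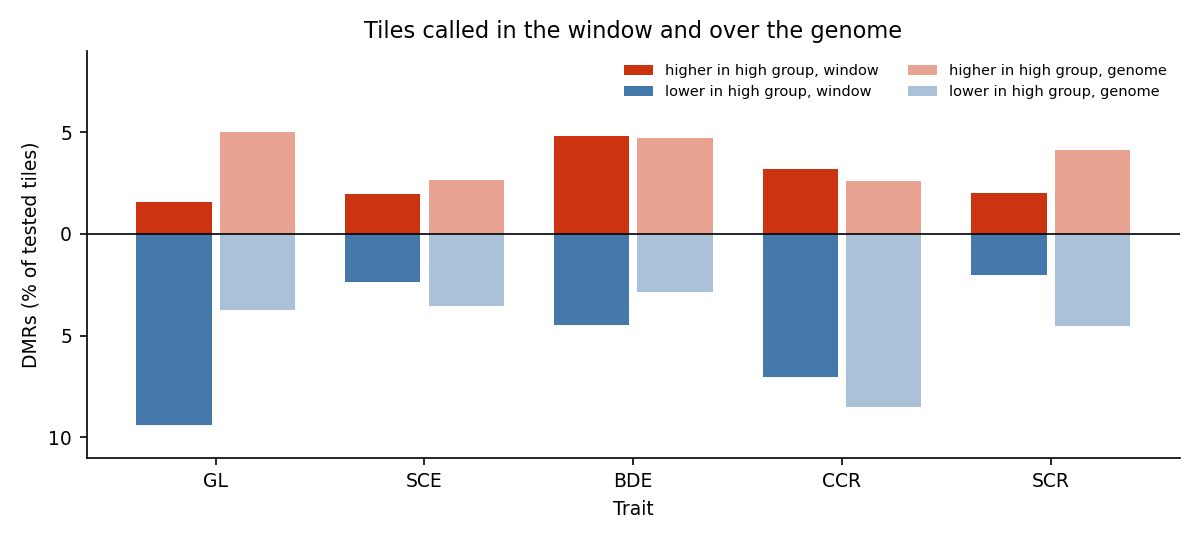
DMRs as a percent of tested tiles for each trait, in the window (dark bars) and over the genome (pale bars), with tiles higher in the high group above 0 and lower ones below. For GL, lower tiles make up 9.40% of the window and 3.75% of the genome.

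GL DMRs were most frequent among tiles of intermediate level. Among tested tiles with a median between 20% and 80%, 18 of 39 were DMRs (46.2%, against 26.0% of such tiles over the genome) and 16 of the 18 were lower in high GL bulls. Under 20%, 9 of 34 were DMRs (26.5% against 14.2%), all 9 lower. Over 80%, 15 of 310 were DMRs (4.84% against 5.86%). By position, 16 of 217 tested tiles before NRG2 (7.37%) and 1 of 23 between NRG2 and CYSTM1 (4.35%) were DMRs, below the 8.75% over the genome. Between CYSTM1 and PCDHA13 they were 16 of 110 (14.5%) and after PCDHA13 9 of 33 (27.3%), the last 9 all lower. Of the 94 tiles of that last interval, tested or not, 18.1% were under 20%, against 7.15% in the window. Over the genome 14.2% of tested tiles under 20% were called. Whether tile level bears on the interval's share of DMRs was not tested. At positions listed in both groups, its DMRs starting at 53892001, 53932001, 53940001 and 53944001 were higher in high GL bulls, by +0.416 to +3.17 points. Its other DMRs were lower there. Over the genome 42.9% of GL DMRs were lower, a share not split by level or interval here.

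Most GL DMRs stood at an unmethylated stretch. A stretch overlapped 25 of the 42 DMRs (59.5%) and 32 of the 341 tested tiles that were not DMRs (9.38%). The stretches were defined by low values in these bulls, so a group that lists more positions inside them tends to be lower by construction. The shares listed inside therefore describe the tiles and are not a test. In all 25, the group with the lower methylation was the one that listed the larger share of its positions inside the stretch: high GL bulls in the 23 tiles lower in high GL, and low GL bulls in the 2 tiles higher in high GL. In chr7:52204001-52206000, for example, H03, H09, L03 and L05 were at 4.93%, 17.7%, 2.11% and 5.86%, and H02, H05, L01 and L07 at 36.4%, 20.5%, 81.2% and 7.35%. The groups overlapped through L07 and H09, and the tile differed by -21.8 points. High GL bulls had 87 of their 94 listed values in the stretch (92.6%) and low GL bulls 16 of 27 (59.3%). Matched positions are those that both groups list in 1 bull or more, and at the 20 matched positions of this tile the difference was -0.759 points. The largest GL gain, chr7:53484001-53486000, was +23.8 points, with 19.4% of the listed values in a stretch in high GL and 52.2% in low GL bulls, and +0.993 points at 21 matched positions.

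Few of the differences were as large at matched positions. Over the 42 GL DMRs the median size of the difference was 13.3 points. In the called direction it was 2.28 points at matched positions, and 12 DMRs had the opposite sign there. In 13 DMRs (31.0%, against 44.0% over the genome) the matched difference kept its direction and was over 5 points. A Cochran-Mantel-Haenszel test with each position as a stratum called 4 of the 383 tiles (1.04%, against 2.19% over the genome). Of these, 3 were lower in high GL bulls (0.783% against 0.737%), near the genome's share, and 1 was higher (0.261% against 1.45%).

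**Figure D4:**
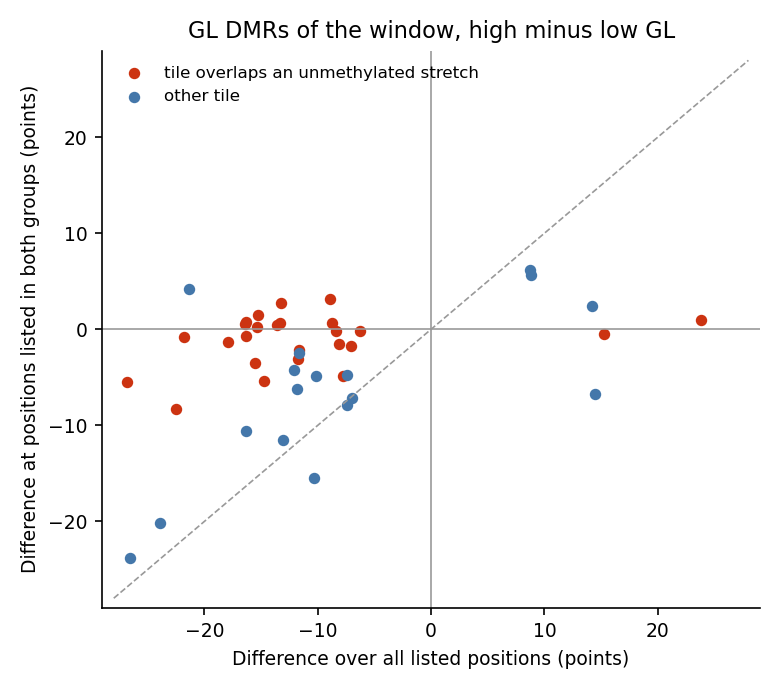
Difference in methylation (percentage points, high minus low GL) of the 42 GL DMRs over all listed positions (horizontal) and at positions listed in both groups (vertical), with tiles that overlap an unmethylated stretch in red. Red points lie between -8.32 and 3.17 points on the vertical axis, and the dashed line marks equal values.

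Like the logistic test, the Cochran-Mantel-Haenszel test pools the reads of a group at each position and ignores how far its bulls lie apart. The 4 tiles called by it at matched positions are therefore given by their bulls. In chr7:52548001-52550000, before NRG2, high GL bulls H03, H09, L03 and L05 were at 90%, 68.0%, 63.6% and 36.4%, and low GL bulls H02, H05, L01 and L07 at 82.4%, 73.1%, 85.6% and 95%. H03 lay above 3 of the low GL bulls, so the groups overlapped. The tile differed by -23.9 points, and by -20.1 points at 12 matched positions (stratified test over the genome, q = 0.00361).

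In chr7:52122001-52124000 the high GL bulls, in the same order, were at 72.1%, 61.9%, 29.3% and 48.8% and the low GL bulls at 93.9%, 54.8%, 57.2% and 69.4%. The groups overlapped, and the matched difference was -11.5 points at 31 positions (q = 0.001986). In chr7:53898001-53900000, after PCDHA13, H03, H09 and L03 lay between 39.3% and 46.8% and L05 at 100% with 1 listed position, while the low GL bulls lay between 59.5% and 95%. Its matched difference was -23.8 points, at 4 positions only (q = 0.005269). The 1 gain, chr7:53140001-53142000, had high GL bulls between 93.6% and 100% and low GL bulls between 81.8% and 96.0%, and a matched difference of +5.67 points at 19 positions (q = 0.001927).

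Groups did not overlap at all in 13 of the 383 tested tiles (3.39%, against 3.3% over the genome), and 3 of these were DMRs. Of these 3, only chr7:53426001-53428000 also kept a matched difference over 5 points. There H03, H09, L03 and L05 were at 83.5%, 93.0%, 90.3% and 89.3%, and H02, H05, L01 and L07 at 95.6%, 96.4%, 95.2% and 100%. Every high GL bull lay below every low GL bull. The tile differed by -7.46 points (q = 0.00376) and by -7.85 points at 15 matched positions (q = 0.06185), and the adjusted p of limma was 0.98. The other 2 lost their difference at matched positions. In chr7:52978001-52980000, inside the 4-tile run beside the QTL lead, high GL bulls lay between 0% and 13.4% and low GL bulls between 18.2% and 35.8%, with a matched difference of +0.741 points at 22 positions. In chr7:53448001-53450000 high GL bulls lay between 0.606% and 3.52% and low GL bulls between 7.27% and 18.2%, with a matched difference of -1.54 points at 36 positions.

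For SCE, 11 of 255 tested tiles were DMRs (4.31%, against 6.18% over the genome), 6 lower (2.35% against 3.54%) and 5 higher (1.96% against 2.64%) in high SCE bulls. Without H01, 18 of 403 tiles were called (4.47%, against 6.8% over the genome) and without L09 18 of 354 (5.08% against 6.17%), 12 of them lower in each case. At matched positions 1 of 255 tiles was called (0.392% against 1.31%), and groups did not overlap in 20 (7.84% against 9.26%). No tile met the rule for naming, which asked for a DMR without overlap and with a matched difference over 5 points in the same direction.

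For BDE, 31 of 334 tiles were DMRs (9.28%, against 7.57% over the genome), 15 lower (4.49% against 2.86%) and 16 higher (4.79% against 4.71%) in high BDE bulls. Without L02 the lower count was 9 of 349 (2.58%, against 2.48% over the genome), so the window's share was then near the genome's, and that of all DMRs was 7.45% against 7.69%. At matched positions 1 of 332 was called (0.301% against 1.6%), and groups did not overlap in 31 (9.28% against 10.1%). That 1 tile was chr7:52122001-52124000, also called for GL, with a matched difference of -23.1 points at 28 positions. High BDE bulls H02, L03 and L08 were at 93.94%, 29.25% and 49.99%, on 3, 25 and 17 listed positions. Low BDE bulls H05, H09 and L02 were at 54.83%, 61.89% and 69.87%. The groups overlapped, and their means over bulls were 57.73% and 62.2%. L03 is in the high group and H05 in the low group of the GL and BDE comparisons. H02 is low for GL and high for BDE, and H09 is high for GL and low for BDE. The tile was also an SCR DMR, at +18.75 points and +9.618 points at 9 matched positions, with L03 in the low group. The largest named loss, chr7:53296001-53298000, was -40.5 points, with H02, L03 and L08 at 36.4%, 37.5% and 70% and H05, H09 and L02 at 72.9%, 90.9% and 88.3%. It rested on 1 to 3 positions per bull and on a single matched position, where the difference was -10 points. The named gain chr7:52460001-52462000 was better covered, with 6 to 12 positions per bull. There H02, L03 and L08 were at 98.5%, 98.8% and 97.2% and H05, H09 and L02 at 88.4%, 89.5% and 95.3%, a difference of +7.13 points, and of +8.01 points at 10 matched positions. The other named gain, chr7:52668001-52670000, was +16.1 points, and +5.03 points at 3 matched positions.

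For CCR, 32 of 314 tiles were DMRs (10.2%, against 11.1% over the genome), 22 lower (7.01% against 8.48%) and 10 higher (3.18% against 2.58%) in high CCR bulls. With a threshold of 10 points the share turned, 7.96% in the window against 7.09% over the genome, and without L06 it was 8.92% against 8.79%. The lower share over the genome depended on single bulls. It was 14.8% without H08 (8.83% in the window), 4.84% without L06 (5.73%) and 5.17% without H06 (5.36%), so without L06 or H06 the window's share was the higher one. The window's share of tiles higher in high CCR bulls fell below the genome's without L08 (1.87% against 2.6%), L06 (3.18% against 3.96%) or H06 (3.15% against 3.36%). It stayed above without H08, H09 or L09. At matched positions 4 of 314 were called (1.27% against 4.4%), and groups did not overlap in 43 (13.7% against 9.94%). In chr7:53414001-53416000, the tile with the highest SD, H08, H09 and L06 were at 17.4%, 27.7% and 28.6% and H06, L08 and L09 at 74.8%, 50% and 36.7%, a difference of -40.9 points that was -5.47 points at 7 matched positions. In chr7:52548001-52550000, the tile called for GL as well, the high CCR bulls were at 56.3%, 68.0% and 70.5% and the low CCR bulls at 92.6%, 92.3% and 86.0%. These groups did not overlap, and the difference was -26.4 points and, matched, -18.9 points at 8 matched positions (q = 0.0005901). H09 is a high bull in both comparisons. The named gain, chr7:53474001-53476000, was +5.61 points, and +5.87 points at 12 matched positions, with high CCR bulls between 96.0% and 98.8% and low CCR bulls between 87.5% and 94.8%.

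For SCR, tested on the listed read counts, 12 of 300 tiles were DMRs (4%, against 8.68% over the genome), 6 lower (2% against 4.54%) and 6 higher (2% against 4.13%) in high SCR bulls. Without H01, the bull with the fewest positions, 34 of 471 tiles were called (7.22%, against 9.38% over the genome), and without L03 20 of 348 (5.75% against 8.6%). Of the 34, 13 were lower (2.76% against 4.76%) and 21 higher (4.46% against 4.62%). Of the 20, 12 were lower (3.45% against 4.08%) and 8 higher (2.3% against 4.52%). The stratified test called 0 of 297 tiles at matched positions, against 2.51% over the genome, and groups did not overlap in 31 tiles (10.3% against 9.13%). The named gain, chr7:53302001-53304000, was +33.5 points, with H01, H02 and H03 at 80%, 95.4% and 75.1% and L01, L02 and L03 at 54.5%, 38.9% and 51.6%. At its 2 matched positions the difference was +5.91 points.

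As for GL, DMRs of the other traits lay at unmethylated stretches more often than the tested tiles that were not DMRs. A stretch overlapped 6 of 11 SCE, 15 of 31 BDE, 18 of 32 CCR and 8 of 12 SCR DMRs, against 11.5%, 11.9%, 9.93% and 11.1% of the tiles not called. In 6, 14, 16 and 7 of these the group with lower methylation listed the larger share of its positions inside the stretch. As for GL, this tends to follow from how the stretches were defined. The density of positions in the stretches applies to these traits too. Matched differences over 5 points in the called direction were kept by 2 SCE (18.2%), 4 BDE (12.9%), 10 CCR (31.3%) and 4 SCR DMRs (33.3%), against 53.9%, 51.2%, 62.2% and 51.8% over the genome. The F test and limma called 0 tiles for these 4 traits too, in the window and over the genome. These groups are smaller still than those of GL, so here too 0 calls do not show that groups were alike. With an unadjusted p under 0.05 on a difference over 5 points, the F test counted 3 tiles for SCE (1.18%, against 2.46% over the genome), 12 for BDE (3.59% against 2.81%), 12 for CCR (3.82% against 2.89%) and 4 for SCR (1.33% against 2.72%). By the same rule limma counted 9 for SCE (3.53% against 3.3%), 15 for BDE (4.49% against 3.84%), 21 for CCR (6.69% against 3.61%) and 7 for SCR (2.33% against 3.4%).

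Each tile counting once, the mean over the window differed between groups by 1.53 points or less for the 5 traits, and for the traits with 3 bulls against 3 no difference could reach an exact p under 0.05. In the 383 tiles listed in all GL bulls, H03, H09, L03 and L05 were at 82.4%, 80.9%, 82.4% and 80.6% and H02, H05, L01 and L07 at 82.2%, 82.1%, 82.4% and 81.4%. The difference was -0.477 points (exact permutation test, 4 bulls against 4, two-sided, p = 0.3714, adjusted over the 5 traits 0.6), and over the rest of the genome it was +0.558 points. The smallest p this design can give is 0.02857, and 0.1 for the traits with 3 bulls against 3. H09 and L05 lay lowest of the 8 and H03 and L03 in the range of the low GL bulls.

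For CCR the high bulls H08, H09 and L06 were at 82.5%, 81.9% and 81.9% and the low bulls H06, L08 and L09 at 83.6%, 84.0% and 83.3%. The groups did not overlap, and the difference was -1.53 points (exact permutation test, p = 0.1, adjusted 0.5), beside -1.43 points over the rest of the genome. At the 95 positions listed in all 6 bulls it was -0.00648 points. The differences for SCE, BDE and SCR were -0.237, +0.601 and +0.184 points (exact permutation tests, p = 0.6, 0.4 and 0.6, each 0.6 when adjusted), and their groups overlapped. Counting every listed position once instead of every tile gave larger differences in the same directions, -3.56 points for GL, -3.15 for SCE, +2.23 for BDE, -3.99 for CCR and +1.1 for SCR (exact permutation tests, p = 0.1714, 0.1, 0.4, 0.2 and 0.6). That mean gives CpG-dense tiles more weight. It also takes in window tiles that not every bull of a comparison lists, and rests on different positions in different bulls. Some other choices turned the sign. At positions listed in every bull of a comparison the differences turned to +0.406 points for GL, +1.99 for SCE and -0.236 for SCR. BDE kept its sign there, at +0.77 points. In the bulls with read counts alone the differences turned to +0.0337 points for GL, +0.391 for SCE and -0.531 for BDE. In the bulls without read counts the signs were kept, at -0.88 points for GL, -0.482 for SCE and +1.28 for BDE. Both of these choices left a lone bull in a group for SCE and BDE.

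**Figure D5:**
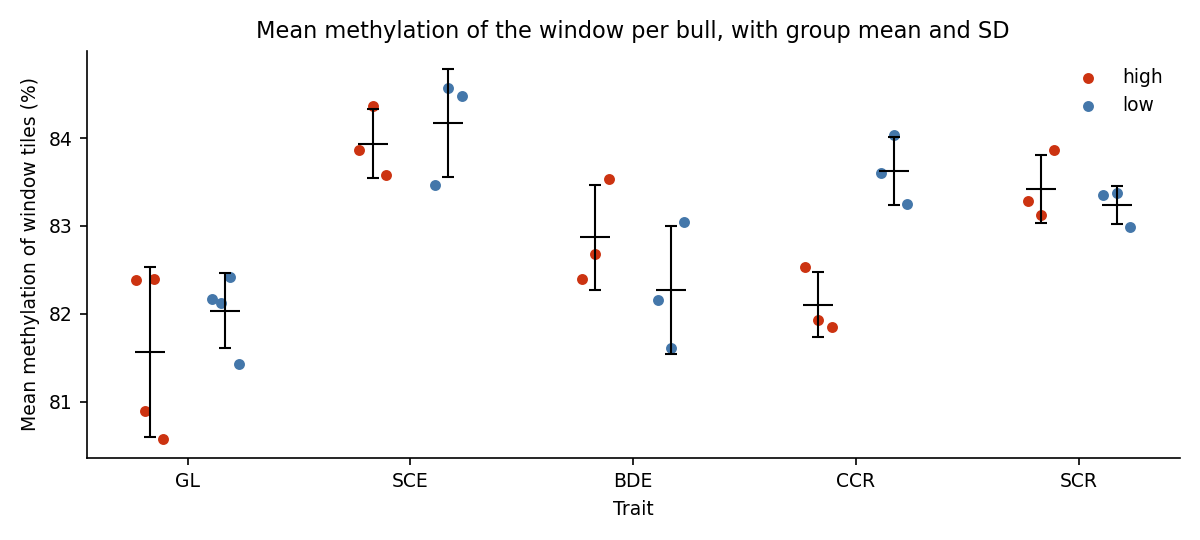
Mean methylation (%) over the window tiles listed in all bulls of a comparison, with 1 point per bull in the high (red) and low (blue) group of each trait and the group mean with its SD in black. The axis does not start at 0, and the high and low groups stand apart for CCR only, with the high bulls at or below 82.5%.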

How the data were processed

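Per the labels and the study's methods, the authors trimmed the reads with Trim Galore 0.4.0, checked them with FastQC 0.11.2, aligned them to UMD 3.1 with Bowtie2 and Bismark 0.14.5, and kept CpG positions covered by at least 10 reads. The authors deposited, for each bull, the percent of reads methylated at every position kept. For 6 of the bulls the deposited values also give the count of reads per position, from which intervals would cover counting error only. The depth of the other 12 is unknown. Positions counted as 10 reads each, and as listed reads for SCR.

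The members, stretches and lists were chosen with earlier results of these data known. All tests were fitted over the genome and read for window tiles. Each tile was tested by a logistic likelihood ratio test, after the study's methods, with q from a simplified SLIM estimate (the median slope of the p distribution over 10 segments). Alternatives were an F test with overdispersion floored at 1, limma 3.58.1 (R 4.3.3) on log2((methylated + 1)/(unmethylated + 1)), a Cochran-Mantel-Haenszel test at matched positions, at least 3 positions per bull, a 10-point threshold, 13 reads per position and each bull left out. Tests were tested on simulated data. Python 3.11.15, NumPy 2.4.6, SciPy 1.17.1 and matplotlib 3.10.9 were used. Named tiles were, for GL, up to 4 gains and 4 losses (other traits 2 and 2) that were DMRs without overlap of groups and kept a matched difference over 5 points, the 8 longest unmethylated runs and the lowest tile, the 5 tiles of highest SD listed in all 18 bulls, and the tiles at the QTL lead. The 4 GL tiles called at matched positions, the 52204001, 53484001, 52978001 and 53448001 tiles and the longest stretches were chosen after their values were seen. Replicates are bulls, and no genome sequence was used here.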

Additional observations from a re-analysis of the deposited data

Results flagged for a closer look

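In the GL comparison 20 groups of 4 bulls were examined for a bull far from the others (the window mean, the means of its 4 intervals and the 4 tiles called at matched positions with the tile named by the rule, in high and in low GL bulls), and 1 stood out, where chance alone gives about 1 in 20. In chr7:53898001-53900000, L05 was at 100% on 1 listed position, while the other high GL bulls lay between 39.3% and 46.8%. The gap was 0.877 of the group's range, above Dixon's 95% critical value. Its part in the tile's difference was not tested.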

How the results depend on the processing

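The GL, SCE, BDE, CCR and SCR counts of window DMRs (42, 11, 31, 32 and 12) moved by over 1.5 times as follows. They were 21 of 152, 6 of 77, 14 of 116, 15 of 119 and 4 of 78 tested tiles with at least 3 positions in every bull. As shares these were 13.8%, 7.79%, 12.1%, 12.6% and 5.13%, against 8.77%, 6.63%, 8.15%, 11.4% and 9.33% over the genome, so SCE and CCR turned from below to above the genome. CCR also did so with a 10-point threshold (7.96% against 7.09%) and without L06 (8.92% against 8.79%), and BDE turned to below it without L02 (7.45% against 7.69%). The counts were 4, 1, 1, 4 and 0 at matched positions, and 0 for each trait with the F test and with limma. SCE gave 6 with a 10-point threshold and 17 with 13 reads per position. With 1 bull left out, the counts ranged from 34 (without L05) to 48 (without H09) for GL, 9 to 18 for SCE, 24 to 35 for BDE, 27 to 43 for CCR and 14 to 34 for SCR, the highest SCE count without H01 or without L09 and the highest SCR count without H01. The tested totals changed too: as shares of tested tiles they were 8.72% to 10.7%, 3.49% to 5.08%, 7.11% to 8.68%, 8.52% to 11.7% and 4.47% to 7.22%, against 7.84% to 9.12%, 6.17% to 6.8%, 6.93% to 7.79%, 8.53% to 16.9% and 8.47% to 9.38% over the genome. Some window mean differences changed sign. At positions listed in every bull they were 0.406 points for GL (71 positions), 1.99 for SCE (58) and -0.236 for SCR (59), and in bulls with read counts 0.0337 for GL, 0.391 for SCE and -0.531 for BDE, the last 2 with a lone bull on 1 side and no test. With 1 bull left out, GL ran from -0.955 (without H03) to -0.174 (without L05), SCE from -0.514 (without H01) to -0.00245 (without H06), BDE from 0.166 (without H09) to 1.14 (without L02) and CCR from -1.76 to -1.4 points. SCR ran from -0.316 to 0.298 points, turning negative without H03 (-0.0202) or L03. The window mean against the rest of the genome went from -2.17 to -3.38 points in tiles listed in all 18 bulls. It turned to 1.8 points without tiles under 20%, an alternative added after the data were seen that selects on the level itself. The share of tiles under 20% was 11.6% at a limit of 50% (6.62% in the rest of the genome) and 9.94% in tiles listed in all 18 bulls (2.91%). Of 123 alternative values, 28 counts or shares moved and 9 differences changed sign. In the others, called counts stayed within 1.5 times and differences kept their direction, though not their size. With 3 bulls or fewer in a group the exact p could not reach 0.05, so it says nothing of stability for SCE, BDE, CCR and SCR, nor for GL with 1 bull left out. With each position counted once, GL was -3.56 points, and the median SD between bulls was 5.69 points at the 10 positions listed in all 18 bulls and 2.86 in the 38 tiles with at least 3 positions per bull. No paired analysis was possible because the labels number bulls across groups and pair none. Depth limits all of this: 12 bulls have no read counts, H01 lists 1227 window positions, and 10 positions are shared by all 18 bulls, so differences of tiles were measured mostly on different positions in different bulls.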
